A study of Mus musculus with 6 samples.

Results

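The sterol and fatty acid synthesis genes were examined in CD27SP NK cells of mice with *Myc* deleted in NK cells. The list holds 31 genes, chosen by name for their place in these pathways, out of 25690 gene symbols in the tables. It has 5 regulators of SREBP, 18 enzymes of sterol synthesis and 8 enzymes of fatty acid synthesis. Each of the 31 had enough counts to be among the 15474 genes tested.

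RNA came from CD27SP NK cells, the immature NK cells that carry CD27 but not CD11b, sorted from BM by these markers and NK1.1. Control mice were *Ncr1cre Myc* wt/wt and the others *Ncr1cre Myc* fl/fl, all on a C57BL/6 background, so that both groups carry the Cre. Each genotype has 3 libraries, with the replicate numbers 1, 2 and 4, and values are given in that order. Cre is driven by the *Ncr1* locus, which comes on in immature NK cells, and the gate did not select for NKp46, the product of *Ncr1*. *Myc*, the deleted gene, had CPM values (normalised counts per Mio) of 200.5, 183.4 and 164.3 in *Ncr1cre Myc* wt/wt and of 61.5, 64.6 and 76.5 in *Ncr1cre Myc* fl/fl, so that 37.0% of the control level remained in the sorted cells. The mice were sex- and age-matched. The study gives an age range for the mice of its experiments, and an age for each library was not given in the sources used here. Nothing in the labels ties equal replicate numbers to litters or days, nor says that each library is 1 mouse, so p-values measure the spread between these libraries.

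Sterols and fatty acids are both built from acetyl-CoA in the cytosol. The SREBP transcription factors, encoded by *Srebf1* and *Srebf2*, sit in the ER membrane until SCAP escorts them to the Golgi for cleavage, and INSIG proteins hold SCAP back when sterols are plentiful. SREBP2 is known mainly for driving sterol synthesis and the SREBP1c form of SREBP1 for driving fatty acid synthesis. In NK cells, SREBP activity is known to be raised by cytokines and to support glycolysis and respiration.

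SREBPs bind sterol regulatory elements next to sites for NF-Y (CCAAT) and Sp1 (GC boxes), whereas MYC binds E-boxes. Promoters of 3 members are shown because they hold these letters in different combinations. *Hmgcs1* is the 1 member with a match to the sterol regulatory element among the 25 that could be searched. *Sc5d* holds an E-box, and *Cyp51*, which is among the members with the smallest p-values, holds neither. The sequences are from RefSeq on GRCm38.p6, run 5′ to 3′ on the strand of the gene, and end before the annotated start of transcription. Capitals mark matches on either strand to the motifs TCACNCCAC (sterol regulatory element), CACGTG (E-box), CCAAT (NF-Y site) and GGGCGG (GC box).
*Hmgcs1*, chr13:119690101-119690350, plus strand: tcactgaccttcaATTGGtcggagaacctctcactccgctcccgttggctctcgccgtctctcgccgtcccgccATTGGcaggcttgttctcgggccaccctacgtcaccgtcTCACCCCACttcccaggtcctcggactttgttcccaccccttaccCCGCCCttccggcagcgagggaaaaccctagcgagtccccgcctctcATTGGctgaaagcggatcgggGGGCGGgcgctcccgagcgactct
*Sc5d*, chr9:42264301-42264550, minus strand: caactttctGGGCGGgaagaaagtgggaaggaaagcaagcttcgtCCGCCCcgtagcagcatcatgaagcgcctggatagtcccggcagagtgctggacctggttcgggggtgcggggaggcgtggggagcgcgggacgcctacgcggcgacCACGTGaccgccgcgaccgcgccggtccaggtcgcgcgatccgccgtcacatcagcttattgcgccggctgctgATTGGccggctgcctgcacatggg
*Cyp51*, chr5:4104747-4104947, minus strand: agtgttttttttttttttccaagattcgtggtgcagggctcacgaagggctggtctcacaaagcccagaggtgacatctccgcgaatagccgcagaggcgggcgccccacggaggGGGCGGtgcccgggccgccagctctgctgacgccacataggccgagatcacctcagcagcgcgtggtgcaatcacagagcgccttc

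In *Hmgcs1*, the match to the sterol regulatory element begins at base 114 of the printed stretch, with CCAAT matches at bases 14, 75 and 206 and GC boxes at bases 159 and 227. The E-box of *Sc5d* begins at base 153. The stretch of *Cyp51* has 1 match, a GC box at base 116.

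A RefSeq window of 300 bases, 250 before and 50 after the start, was found for 25 of the 31 genes and searched whole. *Fdps*, *Fdft1*, *Sqle*, *Scd1*, *Scd2* and *Fads1* had no window and were not searched. CCAAT was present in 20 of the 25 (80%), against 41.1% of the 27025 genes with a window, and GGGCGG in 21 of the 25 (84%), against 38.2%. The E-box CACGTG was present in 5 of the 25 (20%), against 8.09% of all genes, namely in *Scap*, *Insig1*, *Hsd17b7*, *Sc5d* and *Dhcr7*. TCACNCCAC was found in 1 of the 25 (4%), against 1.44%. The 27025 genes were not limited to those tested here, whereas each member was tested. A match is a stretch of letters in this window and not a measured binding site. By branch, CCAAT was present in 14 of 15 sterol windows, 4 of 5 regulator windows and 2 of 5 fatty acid windows.

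The estimated counts summed to between 54550907 and 64962491 in 5 libraries and to 8101219 in *Ncr1cre Myc* wt/wt replicate 1, which therefore gives the least precise values for weakly expressed genes. Among all genes tested, 135 (0.872%) passed the threshold as lower in *Ncr1cre Myc* fl/fl and 198 (1.28%) as higher, at an adjusted p below 0.01 with a log2 fold change of 0.5 or more in size in edgeR. With offsets from effective lengths, 8 and 24 genes passed. The NK cell markers were abundant in every library, with a summed CPM of 14660 to 15252 in *Ncr1cre Myc* wt/wt and of 16731 to 17479 in *Ncr1cre Myc* fl/fl. None of these 10 passed in edgeR, with *Gzma* lower (log2 fold change -0.64) and *Prf1* (0.93) and *Il2rb* (0.47) higher at an unadjusted p below 0.05. Several markers of other BM cells were higher in *Ncr1cre Myc* fl/fl. The summed CPM of 10 basophil and mast cell markers, 9 of which passed the threshold, was 82.1 to 101.3 in *Ncr1cre Myc* wt/wt and 256.3 to 523.1 in *Ncr1cre Myc* fl/fl. Of the neutrophil markers 5 of 9 tested passed (85.4 to 140.0 against 539.3 to 896.8 CPM), of the erythroid markers 3 of 8 (46.6 to 285.3 against 568.9 to 1188 CPM), of the monocyte markers 3 of 7 (1666 to 1873 against 2089 to 2383 CPM, most of it *Ccr2*, which did not pass) and of the dendritic cell markers 2 of 8 (323.5 to 385.0 against 720.7 to 889.7 CPM), all as higher. None of 6 B cell markers (4.55 to 8.64 against 11.98 to 16.15 CPM) and none of 8 T cell markers (906.8 to 1250 against 890.5 to 1157 CPM) passed in edgeR, with 3 B cell markers higher, and 3 T cell markers higher and 1 lower, at an unadjusted p below 0.05. The monocyte marker *Fcgr1* and the B cell marker *Vpreb1* were at 0 in all *Ncr1cre Myc* wt/wt libraries. Their part in the values of the lipid genes was not tested, and in sorted bulk samples fewer cells of a type and less RNA per cell cannot be told apart.

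CD27SP NK cells of both genotypes transcribed almost the whole list. Per length, the most abundant sterol gene in *Ncr1cre Myc* wt/wt was *Ebp*, the isomerase that shifts the double bond of the sterol ring, at 104.0 ± 6.97 TPM (transcripts per Mio; SD, n = 3). It was followed by *Sc5d*, the lathosterol desaturase, at 48.6 TPM (56.0, 47.8 and 42.1 TPM by library) and *Fdps*, which makes farnesyl diphosphate, at 31.2 ± 3.49 TPM, a level that differed from those of *Dhcr7* (30.8 TPM) and *Msmo1* (30.4 TPM) by less than its SD. The lowest of the 18 sterol genes was *Hsd17b7* at 3.72 TPM. Among the fatty acid genes, *Acly*, which splits citrate to cytosolic acetyl-CoA, led at 97.7 ± 6.45 TPM, and *Elovl6*, which extends palmitate, followed at 32.6 ± 1.28 TPM. The stearoyl-CoA desaturases were unequal, with *Scd2* at 28.9 TPM and *Scd1* at 0.067 TPM in *Ncr1cre Myc* wt/wt, and *Scd1* had between 1 and 42 counts in any library. *Srebf1* was the most abundant regulator at 51.3 TPM, above *Srebf2* at 19.7 TPM.

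**Figure D1:**
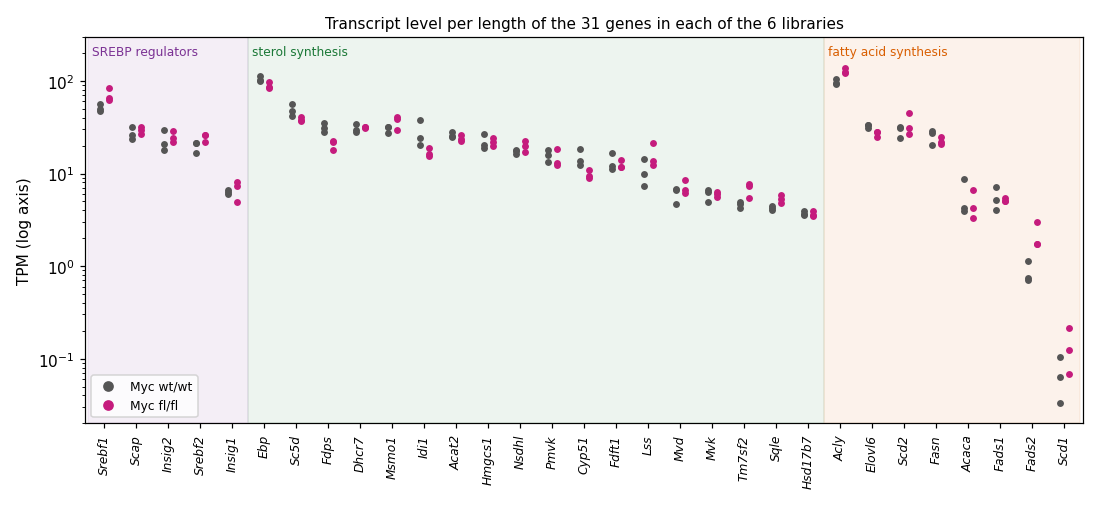
TPM (log axis) of the 31 genes in each library, grouped by role and ordered by the *Ncr1cre Myc* wt/wt mean, with *Ncr1cre Myc* wt/wt in grey and *Ncr1cre Myc* fl/fl in pink, 1 point per library. *Ebp* and *Acly* are highest in both genotypes, and *Scd1* reaches at most 0.214 TPM in any library.

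The comparison of genotypes asks whether loss of *Myc*, which governs biosynthesis in many cell types, changed these transcripts. None of the 31 genes passed the threshold in edgeR in either direction, where 0.872% and 1.28% of all genes passed, and none had an adjusted p below 0.05 (7.83% of all genes). The count was also 0 in limma-trend (1.43% of all genes) and 1 in DESeq2, where *Fdps* passed as lower (537 genes, 3.47%, passed as lower in DESeq2). At an unadjusted p below 0.05 in edgeR, 4 members were lower (12.9%, against 10.2% of all genes tested) and 2 higher (6.45%, against 12.4%), shares near or under those of all genes. The 4 were *Fdps*, *Idi1*, *Cyp51* and *Elovl6*, and the 2 were *Fads2* and *Srebf1*. The fitted log2 fold changes (*Ncr1cre Myc* fl/fl minus control) were below 0 for 17 members (48.5% of all genes were) and ran from -0.68 to 1.22, with a median of -0.071, against a median of 0.014 over all genes. For 26 of the 31 genes the 95% interval lay wholly between -1 and 1 (57.2% of all genes), so a difference beyond 1 on the log2 scale lay outside the interval for these 26. The exceptions were *Idi1* and *Fdps*, whose intervals reached just below -1, and *Tm7sf2*, *Scd1* and *Fads2*, whose intervals reached above 1.

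**Figure D2:**
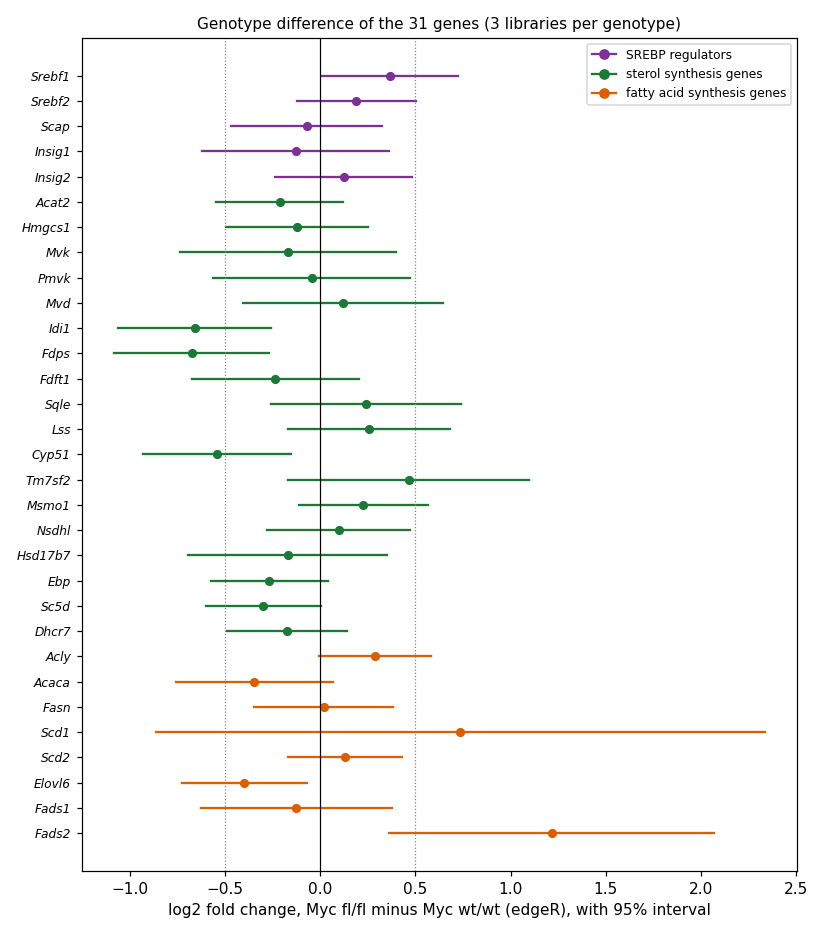
Fitted log2 fold change (*Ncr1cre Myc* fl/fl minus *Ncr1cre Myc* wt/wt, edgeR) of the 31 genes with its 95% interval, coloured by role, with dotted lines at -0.5 and 0.5. *Fdps*, *Idi1* and *Cyp51* lie furthest below 0 and *Fads2* furthest above, and 25 of the 31 intervals include 0.

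Of the 5 regulators, none passed the threshold in edgeR. *Srebf1* (ENSMUSG00000020538.15, chromosome 11, 60199089 to 60222581, minus strand of GRCm38) had CPM values of 86.9, 99.5 and 80.2 in *Ncr1cre Myc* wt/wt and of 105.0, 104.2 and 135.5 in *Ncr1cre Myc* fl/fl. All 3 *Ncr1cre Myc* fl/fl libraries were above the controls, replicate 4 furthest. The log2 fold change was 0.37 (standard error, SE, of 0.16, adjusted p = 0.211, edgeR; 0.138 to 0.800 over the alternatives). It was 0.15 without replicate 4 and 0.53 without replicate 2. Its main transcript, *Srebf1*-201, was at 25.6, 24.9 and 22.3 TPM against 28.8, 24.9 and 36.1 TPM, and *Srebf1*-207, whose start lies downstream of that of *Srebf1*-201, was at 0.34, 12.4 and 6.02 TPM against 11.9, 15.4 and 15.3 TPM. The value of 0.34 comes from the shallow library. *Srebf2* was at 64.8 ± 4.72 and 74.1 ± 6.26 CPM (SD, n = 3 per genotype), *Scap* at 59.8 ± 10.3 and 57.0 ± 10.9, *Insig1* at 11.8 ± 0.279 and 10.9 ± 2.16, and *Insig2* at 25.4 ± 1.29 and 27.8 ± 3.11, and the genotypes overlapped for these 4 genes. *Insig1* is itself a known target of SREBP.

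Of the sterol genes, *Fdps* and *Idi1* had the lowest fitted log2 fold changes. Both act in the steps that lead to farnesyl diphosphate, the branch point from which sterols, ubiquinone, dolichol and prenyl groups are made. *Fdps* (ENSMUSG00000059743.12, chromosome 3, 89093588 to 89101959, minus strand) had CPM values of 30.3, 25.3 and 23.6 in *Ncr1cre Myc* wt/wt and of 17.2, 14.3 and 18.1 in *Ncr1cre Myc* fl/fl. All 3 values of *Ncr1cre Myc* fl/fl lay under the controls. The log2 fold change was -0.68 (SE 0.18, adjusted p = 0.0519, edgeR), and the 95% interval ran from 47.2% to 83.0% of the control level. Over the alternatives the adjusted p ranged from 0.00682, in DESeq2, to 0.195.

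*Idi1* (ENSMUSG00000058258.14, chromosome 13, 8885501 to 8892451, plus strand), the isomerase that makes dimethylallyl diphosphate for FDPS, was at 79.0, 55.6 and 51.5 CPM against 35.1, 43.5 and 37.1 CPM. The genotypes again did not overlap, with *Ncr1cre Myc* wt/wt replicate 1 standing above the rest. The log2 fold change was -0.66 (SE 0.18, adjusted p = 0.0544, edgeR; 0.0144 to 0.219 over the alternatives), and the 95% interval ran from 48.0% to 83.6%. Without replicate 1 it was -0.41, with an adjusted p of 0.219 in edgeR. Without the replicate block, the adjusted p of *Idi1* was 0.0401 and that of *Fdps* 0.0327 in edgeR, below 0.05 (9.6% of all genes) but not below the threshold of 0.01.

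The other 5 genes of this stretch were closer to the controls. *Acat2*, which joins acetyl-CoA units, was at 38.1 ± 5.12 and 32.8 ± 2.52 CPM (SD, n = 3), and *Hmgcs1*, the HMG-CoA synthase, at 53.3 ± 12.1 and 48.2 ± 3.75. The kinases *Mvk* and *Pmvk* were at 5.51 ± 0.206 and 4.92 ± 0.273 and at 9.62 ± 0.623 and 9.42 ± 2.09 CPM, and the decarboxylase *Mvd* at 6.62 ± 0.812 and 7.25 ± 1.43. Among these, the genotypes did not overlap for *Mvk* alone, whose log2 fold change of -0.17 was smaller than its SE of 0.25 in edgeR. Summed over the 7 genes, CPM was 241.1, 185.8 and 178.1 in *Ncr1cre Myc* wt/wt and 153.8, 155.3 and 163.7 in *Ncr1cre Myc* fl/fl, 78.2% of the control mean.

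The 3 genes that turn farnesyl diphosphate into lanosterol overlapped between genotypes. *Fdft1*, the squalene synthase, was at 23.3 ± 5.64 and 19.3 ± 1.00 CPM, *Sqle*, the squalene epoxidase, at 8.47 ± 0.894 and 9.93 ± 1.06, and *Lss*, the lanosterol synthase, at 25.4 ± 1.24 and 30.9 ± 8.57 (SD, n = 3). Their sum was at 105.3% of the control mean. Exons of *Fdft1* share 774 bases with *Ctsb* on the other strand, which had a mean of 404.0 CPM, and the libraries do not mark strand.

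After lanosterol, *Cyp51* (ENSMUSG00000001467.5, chromosome 5, 4081145 to 4104746, minus strand), the lanosterol demethylase, had the lowest values relative to the control. Its CPM was 28.8, 24.7 and 23.3 in *Ncr1cre Myc* wt/wt and 17.5, 18.6 and 16.4 in *Ncr1cre Myc* fl/fl, without overlap. The log2 fold change was -0.54 (SE 0.17, adjusted p = 0.0918, edgeR; 0.0269 to 0.250 over the alternatives), with a 95% interval of 52.4% to 89.8% of the control. Its exons share 166 bases with *Akap9* on the other strand, which had 98.1 CPM in *Ncr1cre Myc* wt/wt and 80.4 CPM in *Ncr1cre Myc* fl/fl.

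*Ebp* (ENSMUSG00000031168.14) was at 104.8, 97.6 and 102.4 CPM against 78.3, 92.6 and 82.7 CPM, a log2 fold change of -0.27 (SE 0.14, adjusted p = 0.290, edgeR; 0.187 to 0.585 over the alternatives). *Sc5d* (ENSMUSG00000032018.14) was at 73.7, 66.4 and 61.8 CPM against 54.3, 56.2 and 53.1 CPM, a log2 fold change of -0.30 (SE 0.14, adjusted p = 0.228, edgeR; 0.149 to 0.479 over the alternatives). For both genes the genotypes did not overlap although neither passed the threshold. The same held for *Dhcr7*, the enzyme of the last step to cholesterol, at 46.0, 45.4 and 43.2 against 39.5, 41.1 and 38.7 CPM. It also held for *Hsd17b7*, a 3-keto reductase, at 7.95 ± 0.768 and 7.01 ± 0.467 CPM (SD, n = 3). In TPM both genes overlapped between genotypes, with *Dhcr7* at 29.8, 34.2 and 28.4 against 31.9, 30.7 and 31.4 TPM. In CPM, *Tm7sf2*, a sterol reductase, was the single sterol gene with every *Ncr1cre Myc* fl/fl library above the controls. It was at 3.04 ± 0.182 and 4.20 ± 0.513 CPM (log2 fold change 0.46, SE 0.28, adjusted p = 0.382, edgeR), and it shares 532 exon bases with *Vps51*. *Msmo1* and *Nsdhl*, which help to remove methyl groups from the ring, overlapped between genotypes at 40.2 ± 3.12 and 47.1 ± 6.25 CPM and at 28.0 ± 2.08 and 30.1 ± 4.71 CPM.

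**Figure D3:**
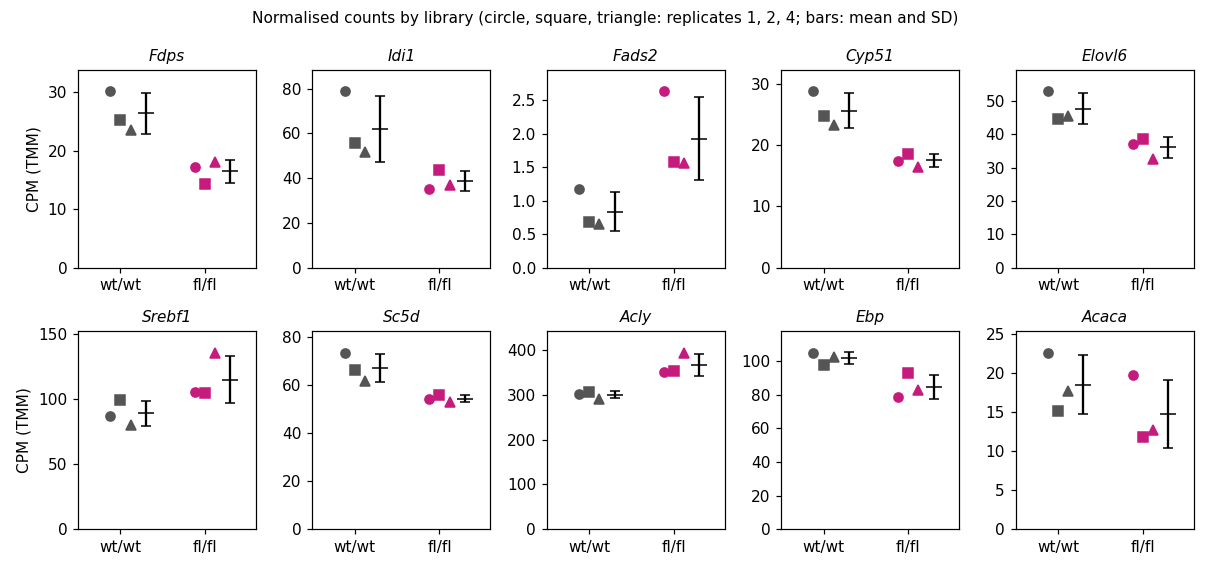
CPM (TMM-normalised, linear axes from 0) of the 10 members with the smallest p, 1 symbol per library (circle, square and triangle for replicates 1, 2 and 4), with mean and SD (n = 3) beside each genotype. The genotypes do not overlap for *Fdps*, *Idi1*, *Fads2*, *Cyp51*, *Elovl6*, *Srebf1*, *Sc5d*, *Acly* and *Ebp*, and overlap for *Acaca*.

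For the 18 sterol genes as a whole, 12 fitted log2 fold changes were below 0 and 6 above, with a median of -0.17. In CPM, the genotypes did not overlap for 8 genes that were lower (44.4%, against 15.1% of all genes tested) and for 1 that was higher (5.56%, against 16.2%). In TPM, *Mvk*, *Hsd17b7* and *Dhcr7* of these 8 overlapped, while *Idi1*, *Fdps*, *Cyp51*, *Ebp* and *Sc5d* did not. *Sqle* and *Tm7sf2* were higher in TPM without overlap. The summed CPM was 639.9, 550.7 and 541.4 in *Ncr1cre Myc* wt/wt and 472.3, 523.5 and 511.6 in *Ncr1cre Myc* fl/fl, 87.0% of the control mean. On the TPM scale the sums were 446.7, 416.3 and 386.4 against 367.0, 387.0 and 387.1, and the genotypes overlapped. The median was -0.037 without replicate 1, -0.091 with offsets from effective lengths, and -0.014 in the limma-trend fit on log2 TPM. The cause of these shifts was not tested.

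The fatty acid genes lay on both sides of the control levels. *Acly* (ENSMUSG00000020917.17) had CPM values of 300.2, 306.7 and 291.1 in *Ncr1cre Myc* wt/wt and of 351.0, 353.1 and 393.2 in *Ncr1cre Myc* fl/fl, every one above the controls. The log2 fold change was 0.29 (SE 0.13, adjusted p = 0.237, edgeR; 0.126 to 0.704 over the alternatives), with a 95% interval from 99.4% to 149.9% of the control. *Acaca*, the acetyl-CoA carboxylase, was at 22.6, 15.2 and 17.7 CPM against 19.7, 11.8 and 12.7 CPM. These overlapped, since replicate 1 was the highest library of each genotype (log2 fold change -0.35, SE 0.18, adjusted p = 0.308, edgeR; 0.252 to 0.718 over the alternatives). Without the replicate block it was -0.31, and -0.17 when *Ncr1cre Myc* wt/wt replicate 1 was also left out. *Fasn*, the fatty acid synthase, was at 84.7 ± 8.06 and 86.4 ± 13.9 CPM (SD, n = 3), and its 95% interval ran from 78.7% to 130.3% of the control.

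*Elovl6* (ENSMUSG00000041220.10, chromosome 3, 129532355 to 129638495, plus strand) was at 53.0, 44.7 and 45.4 CPM in *Ncr1cre Myc* wt/wt and at 37.1, 38.7 and 32.6 CPM in *Ncr1cre Myc* fl/fl. All *Ncr1cre Myc* fl/fl libraries were below the controls, and the log2 fold change was -0.40 (SE 0.15, adjusted p = 0.138, edgeR; 0.0914 to 0.412 over the alternatives). *Scd2* was at 117.2 ± 20.0 and 129.9 ± 34.5 CPM, *Scd1* at 0.247 ± 0.127 and 0.476 ± 0.270, and *Fads1*, a front-end desaturase of polyunsaturated fatty acids, at 13.5 ± 4.62 and 11.9 ± 0.417 (SD, n = 3), and all 3 overlapped between genotypes.

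*Fads2* (ENSMUSG00000024665.8, chromosome 19, 10062765 to 10101746, minus strand), which starts the desaturation of essential fatty acids, had the highest fitted log2 fold change of the list but a low level. Its CPM was 1.17, 0.673 and 0.656 in *Ncr1cre Myc* wt/wt and 2.64, 1.57 and 1.56 in *Ncr1cre Myc* fl/fl, resting on 9 counts in *Ncr1cre Myc* wt/wt replicate 1 and 155 in *Ncr1cre Myc* fl/fl replicate 1. The genotypes did not overlap, and the log2 fold change was 1.22 (SE 0.38, adjusted p = 0.0874, edgeR; 0.0489 to 0.299 over the alternatives). The summed markers of basophils, neutrophils, erythroid and dendritic cells, given above, were also higher in these libraries, and their part in the level of *Fads2* was not tested.

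Over the 8 fatty acid genes, 3 fitted log2 fold changes were below 0 and 5 above, with a median of 0.074. The median was -0.028 when at least 10 counts in every library were required, a filter that drops *Scd1* and *Fads2*. The summed CPM was 609.7, 590.5 and 545.8 in *Ncr1cre Myc* wt/wt and 688.5, 606.7 and 646.5 in *Ncr1cre Myc* fl/fl, and these overlapped. On the TPM scale the sums were 195.0, 207.5 and 188.0 against 234.8, 215.2 and 222.2, all higher in *Ncr1cre Myc* fl/fl, without overlap. *Acly* by itself was at 92.2, 104.8 and 96.1 against 125.6, 121.4 and 137.1 TPM. With *Acly* left out, the summed CPM was 309.5, 283.8 and 254.7 against 337.5, 253.6 and 253.2, and the genotypes overlapped. *Acly* held between 49.2% and 60.8% of the summed CPM. The ratio of the sterol to the fatty acid sum of CPM was 1.05, 0.933 and 0.992 in *Ncr1cre Myc* wt/wt and 0.686, 0.863 and 0.791 in *Ncr1cre Myc* fl/fl, without overlap. With *Acly* left out, the ratio was 2.07, 1.94 and 2.13 against 1.40, 2.06 and 2.02, and the genotypes overlapped.

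Further lists of genes that neighbour these 31 were read beside them. Of 12 genes of SREBP processing and sterol sensing, none passed the threshold in edgeR, and 9 fitted log2 fold changes were above 0 and 3 below (median 0.10). At an adjusted p below 0.05 (7.83% of all genes in either direction), 1 gene was lower and 1 higher. The smallest p was that of *Tmem97*, a sterol-binding membrane protein and known target of SREBP2, at 34.3, 34.5 and 32.5 CPM in *Ncr1cre Myc* wt/wt and 18.7, 20.4 and 19.0 CPM in *Ncr1cre Myc* fl/fl. The genotypes stood well apart, and the log2 fold change was -0.80 (SE 0.16, adjusted p = 0.0170, edgeR; 6.42e-05 to 0.0609 over the alternatives). *Tmem97* passed as lower without the replicate block, without a filter on low counts, and in DESeq2.

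None of 16 genes of the isoprenoid branch and prenylation passed in edgeR, where the median log2 fold change was -0.11. *Pdss1*, which makes the ubiquinone tail from farnesyl diphosphate, had the smallest p, at 19.4, 16.1 and 14.2 CPM against 10.8, 10.8 and 10.8 CPM. The genotypes did not overlap (log2 fold change -0.60, SE 0.20, adjusted p = 0.101, edgeR; 0.0331 to 0.280 over the alternatives).

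For sterol uptake, storage and efflux, 18 of 19 genes were tested and none passed in edgeR, while 15 of the fitted log2 fold changes were above 0 (median 0.28). *Cyp27a1*, a mitochondrial sterol hydroxylase, had the smallest p at hardly detectable levels, with 0, 6 and 0 counts in *Ncr1cre Myc* wt/wt and 22, 30 and 14 counts in *Ncr1cre Myc* fl/fl. Its adjusted p was 0.0675 in edgeR (0.0487 to 0.265 over the alternatives), and its fitted fold change is not given because it depends on the prior count. This gene is also expressed by macrophages, and the macrophage markers *Csf1r* (2.86 ± 0.498 against 10.7 ± 0.802 CPM) and *Lyz2* (5.13 ± 1.42 against 20.5 ± 2.11 CPM; SD, n = 3) passed as higher in the same libraries, and the part of such cells was not tested.

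Of 30 genes of fatty acid precursors, elongation and activation, 26 were tested and none passed in edgeR, with a median log2 fold change of 0.029. *Elovl7*, an elongase, had the smallest p at 26.4, 22.9 and 22.7 CPM against 17.5, 14.8 and 12.9 CPM. The genotypes did not overlap (log2 fold change -0.68, SE 0.18, adjusted p = 0.0458, edgeR; 0.00291 to 0.192 over the alternatives), and *Elovl7* passed as lower in DESeq2. *Mecr*, the reductase of mitochondrial fatty acid synthesis, was named after its values were seen as the 1 other gene of this list with an adjusted p below 0.05, at 20.9 ± 4.61 and 11.7 ± 1.07 CPM (log2 fold change -0.81, SE 0.21, adjusted p = 0.0485, edgeR; 0.00569 to 0.189 over the alternatives), and it too passed in DESeq2.

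**Figure D4:**
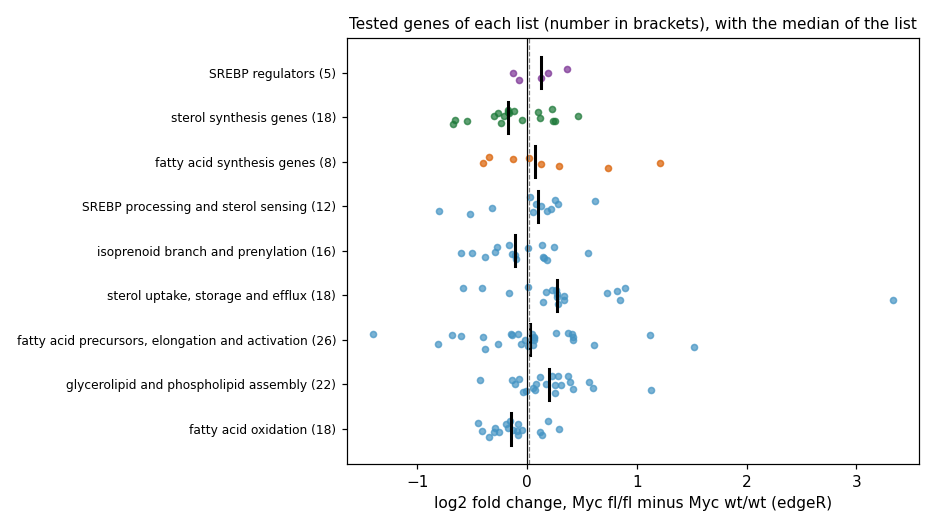
Fitted log2 fold changes (*Ncr1cre Myc* fl/fl minus *Ncr1cre Myc* wt/wt, edgeR) of the tested genes of each list, 1 point per gene, with a black bar at the median of the list, a solid line at 0 and a dashed line at the median of all genes (0.014). The sterol synthesis genes have a median of -0.17 and the sterol uptake, storage and efflux genes of 0.28, and each list holds genes on both sides of 0.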

How the data were processed

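RNA from sorted cells was amplified with the SMART-Seq v4 kit, which marks neither strand nor molecule, and sequenced single end. The authors deposited for each library, per mouse transcript, an estimated count (not normalised) and a TPM value. The sources name Salmon in nf-core/RNAseq and GRCh38, whereas the columns are those of kallisto and the transcripts are of mouse. Effective lengths exceed the length for 9656 to 15694 of 100583 transcripts.

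The estimated counts of each symbol were added up with GENCODE M21 (GRCm38), which held 100239 of the transcripts (0.129% to 0.169% of counts were unmatched), and rounded. Genes were filtered with filterByExpr, scaled by TMM and compared with edgeR 4.0.16 (quasi-likelihood) in R 4.3.3, blocking on replicate number. P-values were adjusted over all 15474 genes (Benjamini-Hochberg). DESeq2 1.42.0 and limma 3.58.1 were alternatives. TPM of a gene is the sum over its transcripts. In the limma fit on TPM, log2(TPM + 1) was used. Scripts were tested on simulated data.

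Deviations of libraries with the same number from their genotype's mean correlated at -0.012, -0.020 and 0.050 for replicates 1, 2 and 4, below the limit of 0.1, so these data do not show that equal numbers mark paired mice, and the block was kept only because the study calls its analyses paired. Libraries of one genotype differed beyond counting noise (chi-square per degree of freedom 40.0 to 101.3).

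The members, lists, tests and alternatives were chosen with earlier results of these data known. Values in every library are given for the 10 members with the smallest p and for the 3 sterol and 2 fatty acid genes with the highest TPM in *Ncr1cre Myc* wt/wt, and of each further list the gene with the smallest p is named. Those lists covered SREBP processing, isoprenoids, sterol uptake, fatty acid precursors, glycerolipids and fatty acid oxidation, and 8 lists of cell type markers were read. Alternatives were the fit without the block, each replicate left out, the fit without the block and without the shallow library, DESeq2, limma-trend, the largest adjusted p of the 3 tools, DESeq2 size factors, library size only, offsets from effective lengths, no filter, at least 10 counts in every library, TPM, and an adjusted p below 0.05 alone. Counts of members with an unadjusted p below 0.05 without the shallow library were added after seeing the data. Totals per library and the precision they give stand in the results. A result of the SREBP processing list is not reported here.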

Additional observations from a re-analysis of the deposited data

How the results depend on the processing

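None of the 31 members passed the threshold in edgeR with the block or in any alternative but DESeq2, where 1 sterol gene passed as lower, *Fdps*, with a log2 fold change of -0.68. Signs were kept by 22 members under each alternative that refitted the fold change and gave them a value (*Scd1* and *Fads2* have none under the filter of at least 10 counts). The signs that turned belonged to 9 genes whose reported log2 fold change was at most 0.174 in size. With a replicate left out, values ranged from -0.28 to 0.19 for *Scap*, -0.29 to 0.071 for *Insig1*, -0.31 to 0.072 for *Hmgcs1*, -0.28 to 0.082 for *Pmvk*, -0.038 to 0.17 for *Nsdhl*, -0.13 to 0.24 for *Fasn* and -0.33 to 0.098 for *Fads1*. Without the block and without *Ncr1cre Myc* wt/wt replicate 1, the values were 0.042 for *Hmgcs1*, -0.048 for *Fasn* and 0.11 for *Fads1*. With effective length offsets they were 0.023 for *Scap* and -0.25 for *Fasn*. On log2 TPM they were 0.096 for *Scap*, 0.070 for *Insig1*, 0.011 for *Mvk*, 0.030 for *Dhcr7* and -0.17 for *Fasn*. The median of the sterol genes ranged from -0.25 to -0.037 with a replicate left out and was -0.014 on TPM. Without the block and the shallow library, 5 members were lower (12.2% of all genes) and 2 higher (12.5%) at an unadjusted p below 0.05.

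The fit without the replicate block passed 184 genes as lower and 203 as higher of all genes, none of them members, and 1 gene of the related lists as lower. Counts over all genes moved, from 135 lower and 198 higher, to 537 and 643 in DESeq2, 25 and 49 with library size only, 8 and 24 with effective length offsets, 378 and 524 without a filter, 0 and 0 on TPM, and 523 and 689 at an adjusted p below 0.05 alone. Limma-trend passed 78 as lower, as did the largest adjusted p of the 3 tools. With a replicate left out they ranged from 10 to 114 lower and from 49 to 162 higher, with the lowest values without replicate 1 and 47 and 88 without replicate 2, and 113 were higher without the block and the shallow library. In the related lists, DESeq2 passed 3 as lower and 1 as higher, the fit without a filter 1 and 1, and an adjusted p below 0.05 alone 3 and 1. The cause of these shifts was not tested. No scaling moved the median of all genes by more than 0.046. Counting error is largest in the shallow library and for *Scd1* and *Fads2*.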

Other observations

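Beyond synthesis, 22 genes of glycerolipid and phospholipid assembly and 18 of 20 genes of fatty acid oxidation were tested, and none passed the threshold in edgeR (1 lower and 2 higher of the first list, and 2 lower of the second, had an unadjusted p below 0.05, where 10.2% of all genes were lower and 12.4% higher). In the glycerolipid list 16 fitted log2 fold changes were above 0 and 6 below, with a median of 0.20. *Dgat1*, which makes triglyceride from diacylglycerol, had the smallest p, at 35.9, 36.7 and 34.9 CPM in *Ncr1cre Myc* wt/wt and 45.1, 52.4 and 67.4 CPM in *Ncr1cre Myc* fl/fl. The genotypes did not overlap (log2 fold change 0.60, SE 0.16, adjusted p = 0.0528, edgeR; 0.0148 to 0.362 over the alternatives).

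In the oxidation list 14 fitted log2 fold changes were below 0 and 4 above, with a median of -0.14. *Acaa2*, the thiolase of the last step of mitochondrial beta-oxidation, was at 104.7, 82.9 and 85.8 CPM against 62.0, 75.3 and 68.2 CPM, without overlap (log2 fold change -0.41, SE 0.15, adjusted p = 0.148, edgeR; 0.0888 to 0.464 over the alternatives). Without replicate 1 the log2 fold change of *Acaa2* was -0.24. *Etfa*, an electron acceptor subunit and the other gene of this list with an unadjusted p below 0.05, was named after its values were seen, at 139.5 ± 14.6 and 112.5 ± 1.87 CPM (SD, n = 3).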
